A study of Mus musculus with 12 samples.

Results

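The chemokine receptors described here are 9 mouse genes, Ccr1, Ccr2, Ccr3, Ccr6, Ccr7, Ccr9, Cxcr3, Cxcr4 and Cx3cr1, taken as every array probe that the scanner files name for one of them. That gave 12 probes of the 55681 on the array, with 3 for Cx3cr1, 2 for Ccr9 and 1 for each other receptor, in 9 of 34761 named genes. They were measured on 12 one-colour Agilent arrays in 4 groups of 3. The first pair of groups held kidney cells that were positive for CD11b and CD11c and had been sorted on an autoMACS instrument, from wild-type (WT) and from homozygous op/op mice of the strain B6C3Fe a/a-Csf1op/J. Both genotypes had received glyoxylate at 80 mg/kg for 6 days, a treatment that makes calcium oxalate deposit in the kidney, and no untreated kidney was analysed here. The op mutation inactivates Csf1, which encodes the macrophage growth factor M-CSF. The second pair held cultured bone marrow derived macrophages under the same strain label, M1 cells stimulated with LPS and GM-CSF and M2 cells stimulated with IL-4 and M-CSF, which the study used as references. Age, sex, pooling of animals and the Csf1 genotype of the marrow donors are not given in the sources used here.

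Chemokine receptors are G protein-coupled receptors that steer leukocytes along gradients of small secreted proteins, the chemokines. Most bind several ligands, signal through inhibitory G proteins and are then desensitized by receptor kinases and arrestins. Each leukocyte type carries its own combination: CX3CR1 and CCR2 separate resident from inflammatory monocyte-derived cells, CCR7 takes dendritic cells to lymph nodes, and CXCR3, CCR6 and CCR9 are best known from lymphocytes.

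Levels are log2 signals from which the 75th percentile of the same array was subtracted, so that 0 is a bright probe and 1 unit is 2-fold, and the brightest probe stands for a gene. A level says which arrays were higher for 1 probe and does not rank different genes. "Above background" means that the scanner software called the spot well above its background. Called differences are those with an adjusted p under 0.05 in limma, fitted across all genes and adjusted by Benjamini and Hochberg. The labels do not say whether the arrays of a group came from separate animals or cultures, so these p-values measure the spread between the samples, which may be technical.

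Between 63.1% and 68.8% of all probes were above background on the op/op arrays, 76.1% to 79.3% on the WT arrays, 72.6% to 75.1% on the M1 arrays and 64.4% to 65.1% on the M2 arrays. The median SD of a gene between arrays of a group (log2) was 0.377 for WT, 0.256 for op/op, 0.157 for M1 and 0.129 for M2. WT replicate 1 was alone on 1 slide, the other 5 kidney arrays were together on another, and the 6 marrow arrays had a slide of their own. Slide and tissue therefore cannot be told apart, and neither can genotype or polarization and the row on the slide, since the upper row held WT and M1 and the lower row held the remaining groups. All 4 sorting antigens (Itgam, Itgax, Itgb2 and Ptprc) and all 9 macrophage markers were above background on every array. The summed linear signal of the macrophage markers, in multiples of the 75th percentile, ran from 81.5 to 172 in WT, 56.4 to 61.3 in op/op and 217 to 251 in the marrow cells. T cell markers summed to 17.9 to 50.5 in WT and 65.3 to 88.5 in op/op, B cell markers to 18 to 25.5 and 34.1 to 45.8, and proximal tubule markers to 123 to 249 and 24.4 to 69.3. Dendritic cell markers summed to 34.4 to 36.9 and 45 to 51.8, but of the 7 genes 2 were lower in op/op, 1 was higher and 4 were neither. Over all genes tested 28.5% were lower in op/op and 30.9% higher. The mean log2 levels of the dendritic cell markers overlapped (0.11 to 0.64 in WT and 0.23 to 0.41 in op/op). In the marrow macrophages the T cell sum ran from 15 to 22.6, which takes in the lowest WT array, the B cell sum from 11.4 to 14.4 and the proximal tubule sum from 1.81 to 11.2. The part of other cell types in the receptor differences was not tested.

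**Figure D1:**
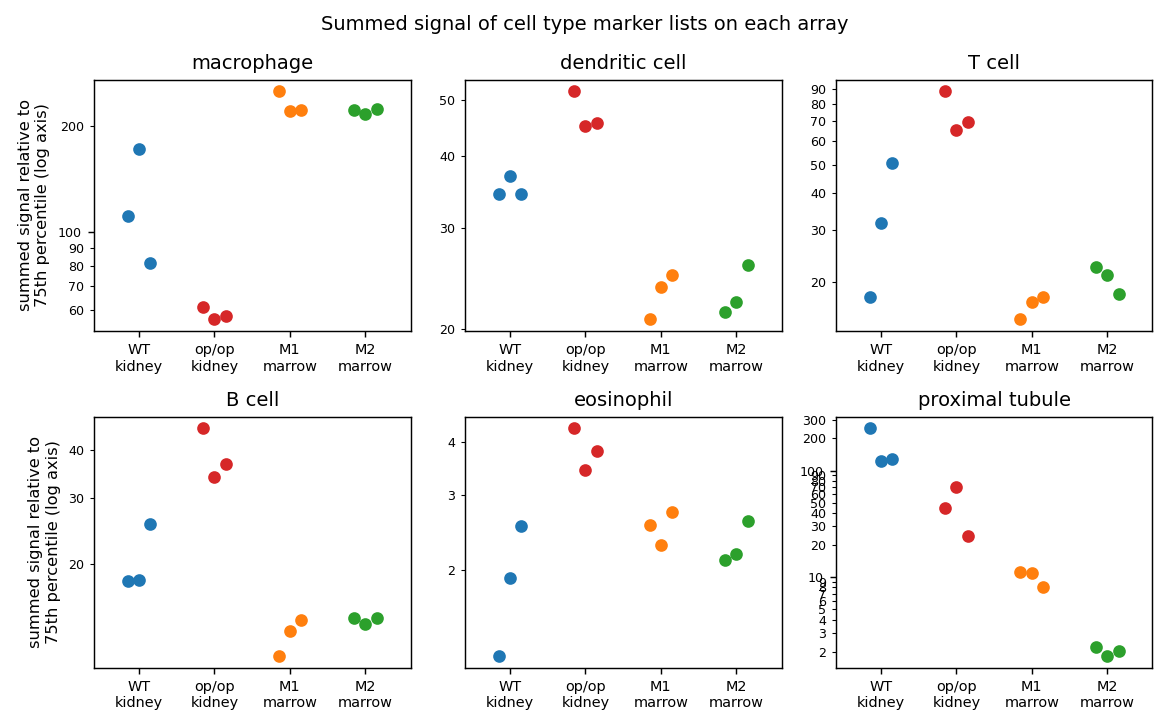
Summed linear signal, in multiples of each array's 75th percentile, of 6 lists of cell type markers (log axis, a different range in each panel). Each point is 1 array. The op/op arrays lie below all WT arrays for macrophage and proximal tubule markers and above them for T cell, B cell and eosinophil markers. They are also above them in the dendritic cell sum, although 2 of those 7 markers were called lower and 1 higher.

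In op/op against WT kidney cells, Cx3cr1, Ccr1, Ccr2 and Cxcr4 were lower and Ccr6 was higher, while Ccr7, Ccr9 and Cxcr3 did not pass the test. That is 5 of the 8 receptors tested, beside 59.4% of the 27067 genes tested in that comparison (30.9% higher and 28.5% lower), so the number called does not set the receptors apart. The median difference of the 8 was -0.91 (log2), against 0.16 over all genes tested. Ccr3 was not tested, because it was above background on 2 of 3 WT arrays and on no op/op array. The cells were measured in bulk, so fewer cells of a type and less RNA per cell cannot be told apart in any of these differences.

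**Figure D2:**
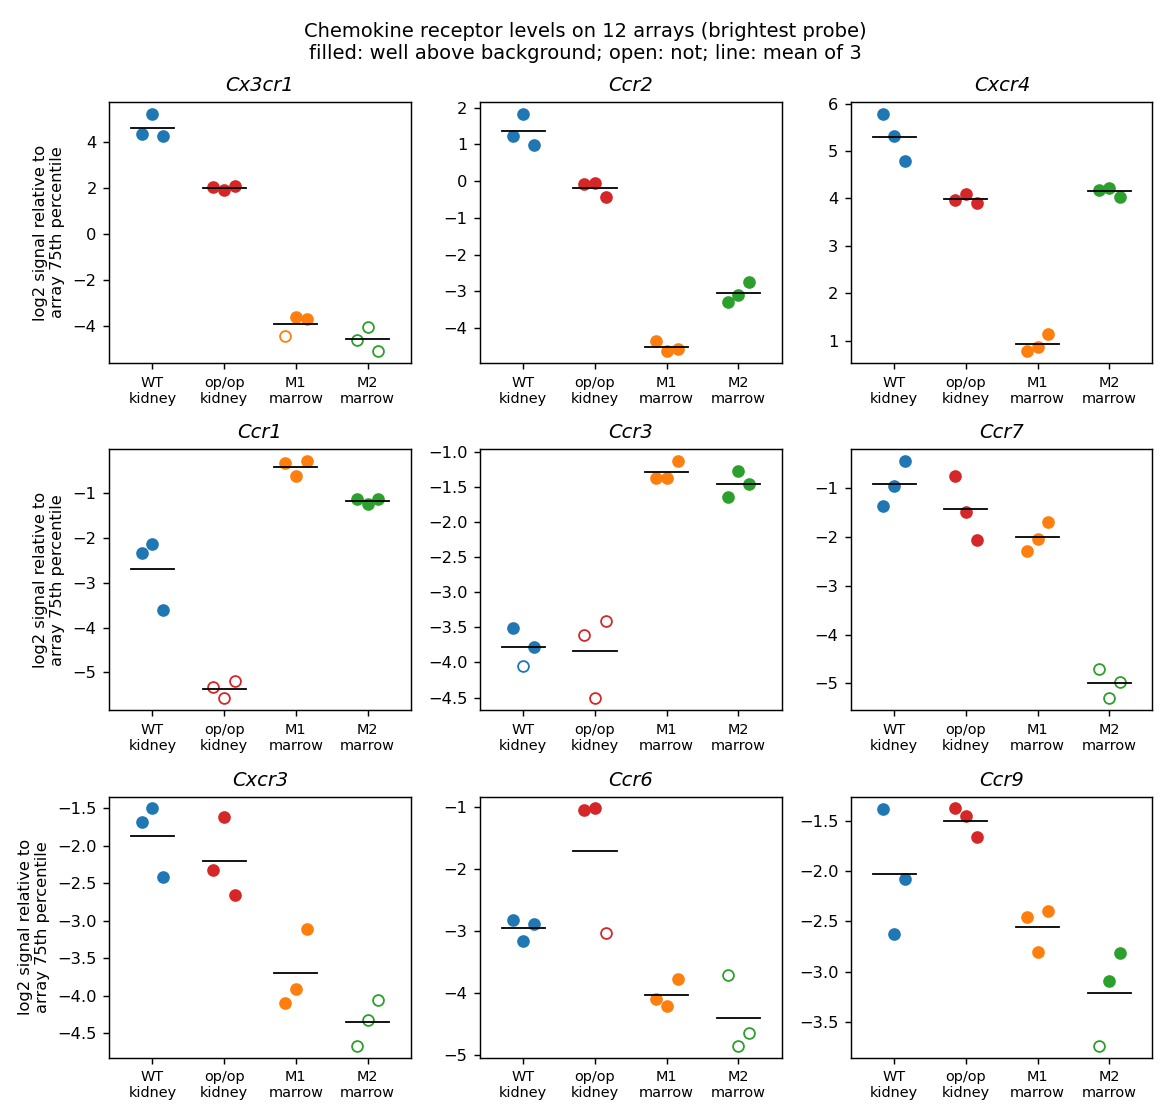
Level of each receptor on each of the 12 arrays (y axis, log2 signal minus the 75th percentile of that array, a different range in each panel), by group (x axis). Filled points are above background, open points are not, and lines mark the mean of 3 arrays. The WT and op/op points do not overlap for Cx3cr1, Ccr2, Cxcr4 and Ccr1, and Cxcr4 separates M1 from M2.

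Cx3cr1 encodes the receptor of fractalkine (Cx3cl1), a chemokine tethered to the cell surface, and marks resident kidney macrophages and patrolling monocytes. Its 3 probes lie on the minus strand of chromosome 9 (mm9). The brightest, at chr9:119957811-119957870, and the next, at chr9:119957806-119957865, are offset by 5 bases and are not independent, and the remaining one, at chr9:119959018-119959077, lies about 1.21 kb away. The last 30 bases of each are shown because they tell the overlapping pair from the separate probe. Capitals mark AATAAA, the letters of the polyadenylation signal.
Cx3cr1 brightest probe: attctgtcAATAAAcattggtttccttcca
Cx3cr1 overlapping probe: gtcAATAAAcattggtttccttccagctct
Cx3cr1 separate probe: ggtctcatttgcaggcttacattgaaagtt
Both probes of the pair hold these letters, and the separate probe does not. Whether the letters mark the transcript's end was not tested.

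With the brightest probe, Cx3cr1 stood at log2 levels of 4.38, 5.25 and 4.27 on the WT arrays and at 2.06, 1.93 and 2.09 on the op/op arrays. The M1 arrays gave -4.47, -3.60 and -3.73 and the M2 arrays -4.62, -4.07 and -5.12 (log2 levels). Every WT array was above every op/op array and every kidney array far above every marrow array, and only 2 of the 6 marrow arrays, both M1, were above background. The op/op minus WT difference was -2.61 ± 0.33 (log2, SE; adjusted p = 0.000495), or 6.1-fold lower. The overlapping probe gave -2.61 ± 0.27 and the separate probe -2.73 ± 0.60 (log2, SE; adjusted p = 0.000258 and 0.00422 with each probe tested on its own), so both places in the gene showed a like difference. Against M2, where no array was above background, WT cells were at least 402-fold and op/op cells at least 65.9-fold higher. Such bounds set the bright group's mean against a value for each array of the dim group. That value was the probe's own signal or the lowest signal above background on the array, whichever was higher. From the separate probe the bounds against M2 were 74.6-fold and 11.2-fold.

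CCR2 binds Ccl2, Ccl7 and Ccl12 and lets inflammatory monocytes leave the marrow for tissue. Its probe lies at chr9:124022948-124023007 on the plus strand (mm9). Log2 levels of Ccr2 were 1.22, 1.83 and 0.99 in WT, -0.071, -0.048 and -0.42 in op/op, whereas M1 gave -4.34, -4.63 and -4.57 and M2 -3.30, -3.11 and -2.76. The order was WT, op/op, M2 and M1, with no overlap between neighbours, and all 12 arrays were above background. In op/op cells Ccr2 was lower by -1.53 ± 0.23 (log2, SE; adjusted p = 0.000883), which is 2.89-fold. Of all genes tested, 28.5% were lower in op/op and 30.9% higher, and of 5 monocyte markers tested 2 were lower and none higher. The median difference of these monocyte markers was -0.73 (log2). Their mean log2 level ran from 2.74 to 3.49 in WT and 2.23 to 2.48 in op/op, without overlap, while their summed linear signal, which the brightest genes dominate, overlapped at 521 to 1060 and 731 to 914. Their part in the Ccr2 difference was not tested.

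CCR1 responds to Ccl3, Ccl5, Ccl6 and Ccl9 on monocytes, macrophages and neutrophils. Its probe lies at chr9:123877790-123877849 on the minus strand (mm9). Ccr1 levels (log2) were -2.34, -2.14 and -3.61 in WT and -5.32, -5.58 and -5.18 in op/op, where no array was above background. M1 cells had -0.33, -0.63 and -0.30 and M2 cells -1.15, -1.24 and -1.15 (log2 levels). The order M1, M2, WT and op/op held without overlap, so that Ccr1 ran opposite to Ccr2 across the tissues although the op/op level was below WT for both. The op/op minus WT difference of Ccr1 was -2.66 ± 0.31 (log2, SE; adjusted p = 0.000411), and because no op/op array was above background it is given as at least 1.91-fold lower. With normexp background correction, which adds an offset to every signal, the difference was -0.49 (adjusted p = 0.0233).

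CXCR4 is the receptor of Cxcl12 and holds leukocytes and their precursors in marrow and tissue niches. Its probe lies at chr1:130485079-130485138 on the minus strand (mm9), and its last 30 bases, shown with AATAAA in capitals, also hold the letters of the polyadenylation signal.
Cxcr4 probe: gtaaattgAATAAAgctagccgtgatcctc
The log2 levels of Cxcr4 were 5.79, 5.32 and 4.79 in WT, 3.98, 4.09 and 3.91 in op/op cells; those of M1 were 0.78, 0.86 and 1.13 and those of M2 4.18, 4.22 and 4.03. WT arrays were highest and M1 arrays lowest, and the op/op and M2 arrays overlapped. Cxcr4 was lower in op/op than in WT by -1.31 ± 0.23 (log2, SE; adjusted p = 0.00137), or 2.48-fold.

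The calls for Cx3cr1, Ccr2, Ccr1 and Cxcr4 were kept when any 1 array was left out. They were also kept in a fit of the kidney arrays alone, with larger limma adjusted p (0.00505, 0.0148, 0.00891 and 0.0204). That fit called 10149 of 27096 genes. With slide as a term, which compares the genotypes within the slide they shared, the differences were -2.74, -1.59, -2.48 and -1.06 (log2; adjusted p = 0.0013, 0.0022, 0.00136 and 0.00274). Of the macrophage markers, 7 of 9 were also lower in op/op and none was higher. Of 9 neutrophil markers tested, 4 were higher in op/op and none was lower. Over all genes tested 28.5% were lower and 30.9% higher. The part of these cell types in the receptor differences was not tested.

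CCR6, the receptor of Ccl20, is carried by B cells, some T helper cells and some dendritic cells. Its probe lies at chr17:8449933-8449992 on the plus strand (mm9). Ccr6 levels (log2) were -2.81, -3.16 and -2.88 in WT and -1.05, -1.02 and -3.04 in op/op. Replicates 1 and 2 of op/op were above all WT arrays, while replicate 4 lay within the WT range and was not above background. The difference was 1.25 ± 0.47 (log2, SE; adjusted p = 0.0393), or 2.38-fold higher. This call rested on few arrays: without op/op replicate 1 or 2 the difference was 0.92 or 0.91 (adjusted p = 0.155 and 0.138), and without op/op replicate 4 it was 1.91 (adjusted p = 0.00248). It was also lost without WT replicate 1, 2 or 4 (1.32, 1.14 and 1.28; adjusted p = 0.0707, 0.106 and 0.0654), without M1 replicate 2 (adjusted p = 0.0512), with slide as a term (1.32; adjusted p = 0.0684), with array weights (1.08; adjusted p = 0.17), in a fit of the kidney arrays alone (adjusted p = 0.0685) and with a replicate block (adjusted p = 0.0509). Of 8 B cell markers, 6 were higher and 1 lower in op/op, beside 30.9% higher over all genes tested. The B cell sum did not follow Ccr6 within op/op, being 36.8 on replicate 4 and 34.1 on replicate 2. The part of B cells in the Ccr6 difference was not tested.

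CCR7 binds Ccl19 and Ccl21 and guides mature dendritic cells and naive T cells to lymph nodes. Its probe lies at chr11:99005551-99005610 on the minus strand (mm9). Ccr7 levels (log2) were -1.36, -0.96 and -0.44 in WT, -0.75, -1.48 and -2.07 in op/op, beside -2.28, -2.05 and -1.70 for M1 and -4.69, -5.31 and -4.97 for M2. The kidney groups overlapped, op/op overlapped M1, and M2 was below all others with no array above background. The op/op minus WT difference was -0.51 ± 0.33 (log2, SE; adjusted p = 0.196). Without op/op replicate 1 it was -0.85 (adjusted p = 0.0476).

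CCR9 draws T cells and plasmacytoid dendritic cells towards Ccl25, and its brighter probe lies at chr9:123690334-123690393 on the plus strand (mm9). Ccr9 had log2 levels of -1.39, -2.63 and -2.07 in WT and -1.38, -1.45 and -1.66 in op/op, so WT replicate 1 lay among the op/op arrays. The difference was 0.53 ± 0.31 (log2, SE; adjusted p = 0.15), and it was 0.85 without WT replicate 1, the array on its own slide (adjusted p = 0.0274), or with slide as a term (adjusted p = 0.0263). The other Ccr9 probe, 9.4 kb away, was above background on 1 WT and 1 op/op array only and gives no usable level.

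CXCR3 answers Cxcl9, Cxcl10 and Cxcl11, the chemokines induced by interferon gamma, on activated T cells and NK cells. Its probe lies at chrX:98926920-98926979 on the minus strand (mm9). Cxcr3 levels (log2) were -1.68, -1.50 and -2.41 in WT and -2.33, -1.62 and -2.65 in op/op, which overlap. The difference was -0.33 ± 0.34 (log2, SE; adjusted p = 0.411). T cell markers, by contrast, were higher in op/op for 7 of 11 tested and lower for none, beside 30.9% higher over all genes tested. The difference between the list and Cxcr3 was not tested.

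CCR3 is the eotaxin receptor that defines eosinophils, and its probe lies at chr9:123945225-123945284 on the plus strand (mm9). Ccr3 levels (log2) were -3.51, -4.05 and -3.78 in WT and -3.60, -4.51 and -3.41 in op/op, above background on WT replicates 1 and 4 only. The eosinophil genes Siglecf and Epx were not above background on any op/op array. Of the 5 listed eosinophil markers 3 were tested, and all 3 were called higher in op/op (median 1.28, log2). Over all genes tested 30.9% were higher. The summed eosinophil markers ran from 1.26 to 2.54 in WT and 3.43 to 4.3 in op/op (multiples of the 75th percentile).

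**Figure D3:**
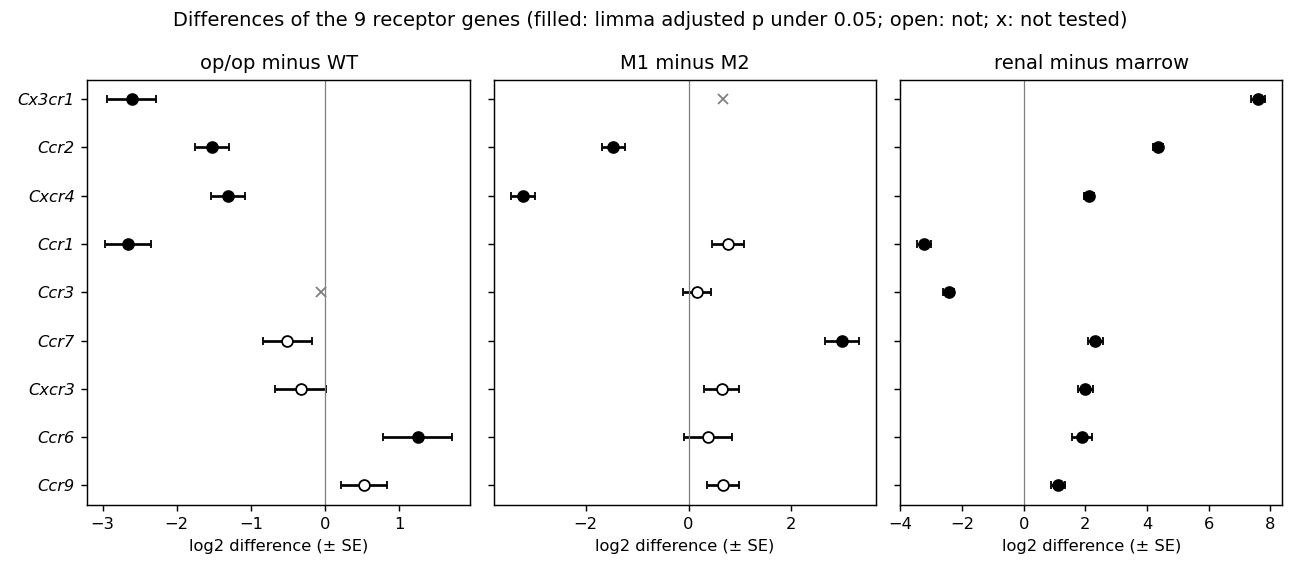
Difference of each receptor (x axis, log2, with bars of 1 SE and a different range in each panel) in the 3 comparisons. Filled points have a limma adjusted p under 0.05, open points do not, and crosses were not tested. The left panel shows 4 receptors lower and Ccr6 higher in op/op, the middle panel Ccr7 higher and Ccr2 and Cxcr4 lower in M1, and the right panel all receptors but Ccr1 and Ccr3 higher in kidney cells.

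Between the reference states, Ccr7 was higher in M1 and Cxcr4 and Ccr2 were higher in M2. These are 3 of 8 receptors tested, beside 17.8% of the 26178 genes tested (8.86% higher in M1 and 8.92% lower). The median difference of the 8 was 0.51 (log2), against 0.00 over all genes tested. Cxcr4 was lower in M1, M1 minus M2 being -3.22 ± 0.23 (log2, SE; adjusted p = 1.44e-06), or 9.34-fold, and the M1 and M2 ranges lay far apart. Ccr7 differed by 2.98 ± 0.33 (log2, SE; adjusted p = 6.58e-05) and was at least 4.3-fold higher in M1, given that no M2 array was above background. With normexp background correction this difference was 1.17 (adjusted p = 0.000993).

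Ccr2 was lower in M1 than in M2 by -1.46 ± 0.23 (log2, SE; adjusted p = 0.000961), or 2.74-fold. Both groups were dim for this probe, and with normexp background correction the call was lost (-0.45; adjusted p = 0.0991). Ccr1 was at 0.76 ± 0.31 (M1 minus M2, log2, SE; adjusted p = 0.129) with no overlap between the groups. It was called with normexp correction (0.64; adjusted p = 0.0151), in a fit of the marrow arrays alone (adjusted p = 0.00259), with array weights (adjusted p = 0.00309) and without WT replicate 4, whose spread enters the shared error (adjusted p = 0.00582). The other M1 minus M2 differences were 0.16 ± 0.27 for Ccr3, 0.38 ± 0.47 for Ccr6, 0.67 ± 0.31 for Ccr9 and 0.65 ± 0.34 for Cxcr3 (log2, SE; adjusted p between 0.178 and 0.772). Ccr3 stood at log2 levels of -1.38, -1.37 and -1.13 in M1 and -1.64, -1.27 and -1.46 in M2, above background on all 6 arrays. Ccr9 was called with array weights (0.68; adjusted p = 0.0248). Cx3cr1 was not tested, since neither marrow group was above background on all its arrays.

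Averaged over both genotypes and both polarizations, 7 receptors were higher in kidney cells and 2, Ccr1 and Ccr3, were higher in marrow macrophages. All 9 were called, beside 82.1% of the 28262 genes tested (47.4% higher and 34.7% lower in kidney). The kidney minus marrow difference was largest for Cx3cr1, at 7.60 ± 0.23, followed by Ccr2 at 4.37 ± 0.16 (log2, SE; adjusted p = 1.26e-09 and 4.87e-09). The other Cx3cr1 probes gave 8.43 and 5.91 (log2), and as only 2 of the 6 marrow arrays were above background for this gene its size is better read from the bounds above. Ccr7 was higher in kidney by 2.32, Cxcr4 by 2.11, Cxcr3 by 2.0, Ccr6 by 1.88 and Ccr9 by 1.12 (log2; adjusted p between 2.86e-07 and 0.00047). These are averages over unlike groups: Cxcr4 overlapped between M2 (mean 4.15) and op/op (3.99) and its difference rests on M1 (0.92), and op/op overlapped M1 for Ccr7, where M2 was far below (log2 levels). For Ccr9 the WT arrays (mean -2.03) overlapped the M1 arrays (-2.55), while M2 stood at -3.22 and op/op at -1.50 (log2 levels). Ccr1 was lower in kidney by -3.23 ± 0.22 and Ccr3 by -2.44 ± 0.19 (log2, SE; adjusted p = 1.53e-07 and 3.35e-07).

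Where a group was above background on none of its arrays, these averages use signals that only bound its level, and the separation is given as a bound. Ccr3 was at least 4.62-fold higher in M1 and at least 4.13-fold higher in M2 than in op/op cells. Ccr1 was at least 9.26-fold higher in M1 than in op/op. WT kidney cells exceeded M2 at least 9.14-fold for Ccr7, 4.71-fold for Cxcr3 and 2.08-fold for Ccr6. The direction of all 9 was kept under every setting in which the receptor was tested, but normexp correction gave smaller values for the dim ones, such as -1.34 for Ccr1, -0.89 for Ccr3, 1.05 for Ccr6, 1.26 for Ccr7 and 1.07 for Cxcr3 (log2), and for Ccr2 (2.92) and Cx3cr1 (5.45). Cyclic loess gave 1.17 for Ccr6 and 1.34 for Cxcr3, and quantile normalization 1.41 for Cxcr3 (log2). Ccr9 was at 0.83 with normexp correction and at 0.71 with quantile normalization (log2). Over all genes tested the median was 0.32 (log2), and 0.07 and 0.09 after quantile normalization and cyclic loess. Lymphocyte, dendritic and tubule markers were also higher in kidney. These were 8 of 11 T cell, 7 of 8 B cell, 6 of 7 dendritic cell and 9 of 9 proximal tubule markers tested. Of the macrophage markers 8 of 9 were lower, beside 47.4% higher and 34.7% lower over all genes tested.

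Ccr1, Ccr3 and Ccr2 belong to a cluster of receptor genes on chromosome 9. The Ccr1 probe lies 67.4 kb from that of Ccr3 and 145 kb from that of Ccr2 (mm9), yet Ccr1 and Ccr3 were higher in marrow and Ccr2 in kidney cells. Ccr9, 187 kb from Ccr1 on the other side, was higher in kidney on average, although its WT and M1 arrays overlapped.

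RefSeq promoters (GRCm38.p6, whose coordinates differ from mm9) matched 8 of the 9 receptors, with 2 starts for Ccr6 and no entry for Ccr7. The 100 bases before the start are shown for the 4 receptors that were lower in op/op. Capitals mark any match, on either strand, to the motifs searched: AGGAAG (ETS core, PU.1 type), TATAAA (core promoter box), CCAAT (the letters of the box of that name), GGGCGG (GC box) and TGTGGT (RUNX).
Cx3cr1 promoter, chr9:120068297-120068396, minus strand: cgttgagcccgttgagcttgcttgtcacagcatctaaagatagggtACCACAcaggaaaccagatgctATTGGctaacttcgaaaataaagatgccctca
Ccr2 promoter, chr9:124102083-124102182, plus strand: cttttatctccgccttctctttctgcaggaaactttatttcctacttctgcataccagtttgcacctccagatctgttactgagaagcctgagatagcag
Ccr1 promoter, chr9:123968693-123968792, minus strand: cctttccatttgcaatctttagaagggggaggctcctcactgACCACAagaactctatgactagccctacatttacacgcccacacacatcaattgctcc
Cxcr4 promoter, chr1:128592300-128592399, minus strand: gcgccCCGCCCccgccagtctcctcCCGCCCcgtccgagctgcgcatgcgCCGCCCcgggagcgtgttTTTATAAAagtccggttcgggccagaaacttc
No motif of the 5 is shared by all 4 receptors. Over the 250 bases before the start, the RUNX letters occur at Cx3cr1, Ccr1 and Cxcr3 and in 14% of all 32851 promoters, and the CCAAT letters at Cx3cr1 and Ccr3 and in 33.8%. Only Cxcr4 has the core promoter box (12.4% of all promoters) and the GC box (32.7%). The ETS letters occur at Ccr6, Ccr9 and Cxcr3 (29.5% of all promoters) and at none of the 4 shown. These matches describe letters and are not binding sites.

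The ligands of the receptors were mostly lower in op/op. Of 18 listed ligands 17 were on the array and 15 were tested, of which 10 were lower, 2 higher and 3 neither, with a median difference of -1.68 (log2) against 0.16 over all genes tested, of which 28.5% were lower and 30.9% higher. Ccl7, a CCR2 ligand, had the largest difference (-3.64 ± 0.50), from a mean level of 2.21 in WT to -1.43 in op/op (log2; adjusted p = 0.00062). Ccl12, another CCR2 ligand, was lower by -3.01 ± 0.45, the CCR1 ligand Ccl3 by -1.78 ± 0.25 and the CXCR3 ligand Cxcl10 by -3.14 ± 0.36 (log2, SE; adjusted p = 0.000839, 0.000682 and 0.000404). The CCR1 ligand Ccl5 was at 0.38 ± 0.21 and did not pass (log2, SE; adjusted p = 0.144), and neither did Cxcr3 itself.

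In M1 against M2, 7 of the 15 ligands were higher, 1 lower and 7 neither, with a median of 1.26 (log2), beside 8.86% higher and 8.92% lower over all genes tested. Cxcl10 was at least 413-fold higher in M1 (adjusted p = 8.1e-09), no M2 array being above background. Cxcl9 was higher by 5.26 ± 0.15, Ccl5 by 7.23 ± 0.21 and Ccl3 by 5.50 ± 0.25 (log2, SE; adjusted p = 4.5e-09, 4.59e-09 and 6.12e-08). M1 cells thus held more ligand transcript for CXCR3 and CCR1, while the receptors Cxcr3 and Ccr1 did not pass the test in that comparison. In kidney against marrow cells 10 ligands were lower and 5 higher, beside 34.7% lower and 47.4% higher over all genes tested. Cxcl12, the CXCR4 ligand, was lower in kidney by -2.80 ± 0.21, opposite in sign to Cxcr4, and Ccl7 was lower by -4.94 ± 0.36, opposite to Ccr2 (log2, SE; adjusted p = 2.38e-07 and 2.05e-07). Ccl9 was lower by -2.77 ± 0.20 (log2, SE; adjusted p = 2.48e-07). For Ccl5 the average of -2.76 ± 0.15 (log2, SE; adjusted p = 3.66e-08) rests on M1, since its mean log2 level was 7.92 in M1 but 0.69 in M2, below both WT (1.36) and op/op (1.73).

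**Figure D4:**
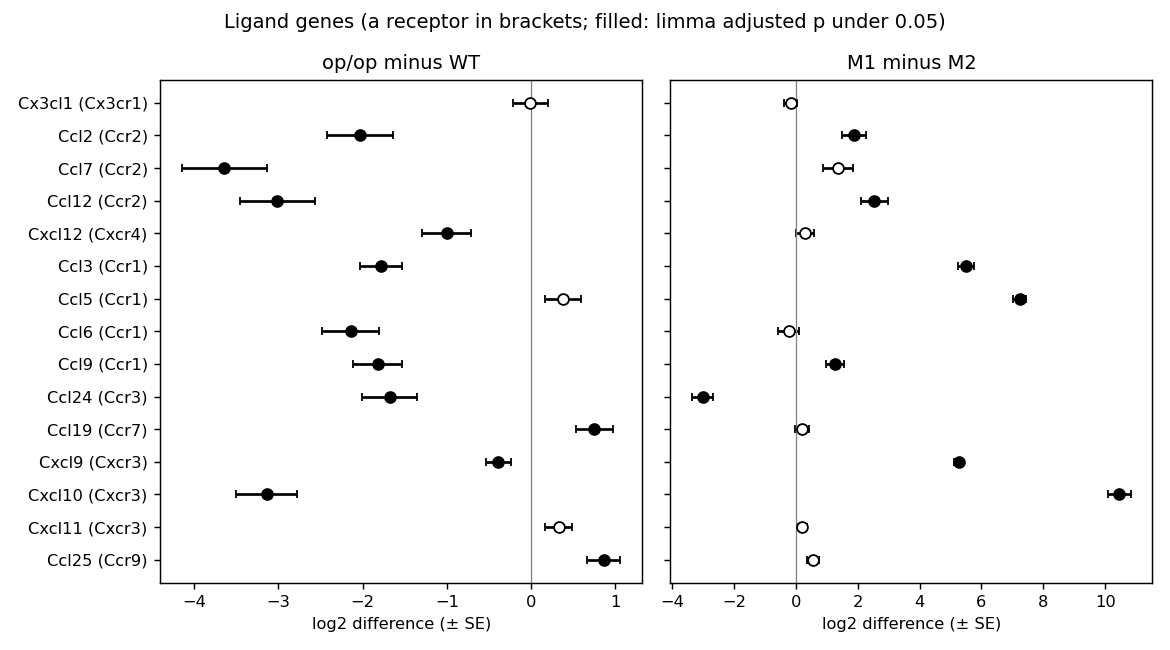
Difference of the 15 ligands tested (x axis, log2, with bars of 1 SE), each labelled with a receptor it binds, for op/op minus WT (left) and M1 minus M2 (right, wider range). Filled points have a limma adjusted p under 0.05. On the left 10 ligands lie below 0 and pass the test, and on the right 7 lie above it and pass.

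The other chemokine receptors were split in op/op against WT. Of 13 listed, 8 were tested, 2 were higher, 1 lower and 5 neither, with a median of 0.43 (log2). Over all genes tested in that comparison 30.9% were higher and 28.5% lower, with a median of 0.16 (log2). Ccrl2, an atypical receptor that binds chemerin without signalling, was lower by -1.78 ± 0.22, and Ccr8 and Ccr10 were higher by 1.01 ± 0.28 and 0.83 ± 0.23 (log2, SE; adjusted p = 0.000484, 0.0109 and 0.0109). Cxcr6 was at -0.72 ± 0.32 and did not pass (log2, SE; adjusted p = 0.0682). In M1 against M2, 1 of 7 tested was higher and 1 lower, beside 8.86% higher and 8.92% lower over all genes tested. These 2 calls became 4 without WT replicate 1 or without op/op replicate 2, 4 with slide terms or the mean of a gene's probes, and 5 with array weights or the marrow arrays alone. Ccrl2 was higher in M1 by 2.55 ± 0.22, like Ccr7, and Cxcr2, the neutrophil receptor, was lower by -1.86 ± 0.28 (log2, SE; adjusted p = 8.81e-06 and 0.00067). Ccr10 was at -0.71 ± 0.23 and Cxcr6 at 0.93 ± 0.32, and neither passed (log2, SE; adjusted p = 0.0543 and 0.0671). Both lay near the threshold: Ccr10 passed in 11 and Cxcr6 in 9 of 26 other settings. In kidney against marrow 6 of 8 were higher and none lower, beside 47.4% higher and 34.7% lower over all genes tested. The scavenging receptor Ackr2 led at 2.55 ± 0.18, with Ccr10 at 1.71 ± 0.16, Ccr8 at 1.01 ± 0.20 and Xcr1, a receptor of cross-presenting dendritic cells, at 1.75 ± 0.21 (log2, SE; adjusted p between 2.08e-07 and 0.000517). No M2 array was above background for Xcr1. WT cells were at least 1.67-fold above M2, and op/op cells, above background on 2 arrays, at least 2.32-fold.

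Genes that carry or end the receptors' signal were mostly lower in op/op: 19 of 24 were lower and none higher, with a median of -0.81 (log2), beside 28.5% of all genes tested that were lower. Macrophage markers were lower with them (7 of 9), and their part was not tested. Vav1, an exchange factor for Rac, was lower by -1.25 ± 0.15, the arrestin gene Arrb2 by -1.12 ± 0.17, Rgs10, which shortens G protein signals, by -1.48 ± 0.22, and Elmo1, a partner of DOCK proteins, by -1.39 ± 0.22 (log2, SE; adjusted p between 0.000413 and 0.000957). In a fit of the kidney arrays alone 12 of the 24 were called, all lower. Between M1 and M2 the list was split, 8 being higher, 5 lower and 11 neither. Over all genes tested 8.86% were higher and 8.92% lower. Rgs2 was lower in M1 by -2.50 ± 0.19, as Cxcr4 was, and Vav1, Prex1 and Arrb2 were higher by 1.64 ± 0.15, 1.78 ± 0.18 and 1.60 ± 0.17 (log2, SE; adjusted p between 3.12e-06 and 3.93e-05). In kidney against marrow 17 were lower and 4 higher, beside 34.7% lower and 47.4% higher over all genes tested. Rac2 was at -2.71 ± 0.15, Pik3r5 at -3.22 ± 0.20, Gnai3 at -2.39 ± 0.16 and Rgs2 at 2.24 ± 0.14 (log2, SE; adjusted p between 4.28e-08 and 1.14e-07).

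The genes whose levels followed each receptor most closely over the 12 arrays are given as a description, since the arrays share 4 groups and any gene with the same order of group means scores high. For Cx3cr1 they were Nr4a1 (Pearson r = 0.988), a nuclear receptor needed by patrolling monocytes, and Spink1 and Slc27a2 (both 0.986), the latter a proximal tubule marker. For Ccr2 they were Lsp1 (0.998), Sh2d1b1 (0.993) and the class II gene H2-Eb1 (0.989). For Ccr1 they were the haem oxygenase gene Hmox1 (0.997), Ripk2 (0.995) and the chemokine gene Ccl7 (0.994). Cxcr4 was followed by Klf4 (0.984), Tspan33 (0.980) and H2-Ke6 (0.976), and Cxcr3 by Smtnl2 (0.981), Tnfsf14 (0.973) and Tlr12 (0.968). Ccr3 was followed by Ccn5 (0.986), Fbxo32 (0.982) and Chst14 (0.981), and Ccr7 by Plbd1 (0.965), Fbxo40 (0.963) and Ttll10 (0.962). The closest genes were Tmprss13 (0.958), Mbl2 (0.958) and Zfp418 (0.953) for Ccr6 and Dll1 (0.949), Chd8 (0.948) and Kdm5b (0.942) for Ccr9.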

How the data were processed

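RNA was amplified and labelled with Cy3, per the labels' protocols. Agilent Feature Extraction 10.7.3.1 made the deposited spot intensity values, background-subtracted, per the file headers; the deposited table of log2 values, relative to each array's 75th percentile by comparison with them (base and centring otherwise unstated), was an alternative. Spots of a probe were averaged, control spots and 30 probes with a poor spot left out, and log2 intensity centred on each array's 75th percentile. A gene, read by its brightest probe, was tested where all arrays of 1 or more of the groups compared were above background. limma 3.58.1 (R 4.3.3; statmod 1.5.0 for blocks) was fitted to 12 arrays in 4 groups without covariates, and tested on simulated data; tables and figures were made in Python 3.11.15 (matplotlib 3.10.9, numpy 2.4.6, pandas 2.3.3). Members and lists were chosen with earlier results of these data known. Named are all members, up to 4 genes with the smallest p per pathway list, and the 3 genes closest to each member by r; 1 listed receptor, left out of the counts after its values were seen, is not reported here. Alternatives were normexp correction (offset 50), quantile normalization, the deposited values, other filters, probe means or single probes, fewer groups, trend and robust variance, array weights, slide terms or blocks, a replicate block, a 2-fold threshold, leaving out each array and, chosen after seeing the data, cyclic loess and centring on probes above background on all 12 arrays. The number of arrays limits the precision.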

Additional observations from a re-analysis of the deposited data

How the results depend on the processing

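The counts of receptors called stayed within 1.5 times of the reported ones under most settings. Requiring a signal above background on all 12 arrays left 2 receptors to test, Ccr2 and Cxcr4. Both were called in op/op against WT and in kidney against marrow (2 each), beside 13975 and 17326 of 20573 genes. Array weights called 5 of 8 receptors in M1 against M2, beside 10359 of 26178 genes. Leaving out 1 array gave 11751 to 17497 genes called in op/op against WT, 3301 to 5749 in M1 against M2 and 22518 to 24309 in kidney against marrow. A 2-fold threshold called 7095, 2829 and 15298 genes in these comparisons. Fitting only the groups compared called 10149 and 9700 genes in the first and second, and array weights called 10359 genes in M1 against M2. The cause of these shifts was not tested. With every probe on its own, 6986 of 39287 probes were called in M1 against M2, beside 4655 of 26178 genes in the reported fit. No result changed sign. The deviations of same-numbered arrays had r between -0.16 and 0.14, and those of differently numbered arrays between -0.27 and 0.29. With so few arrays these values cannot show whether the numbers pair samples. A replicate block called 14439 genes and 4 receptors in op/op against WT, and 3623 genes and 3 receptors in M1 against M2. Kidney arrays varied more than marrow arrays while the fit pools their spread, and dim probes depend on background correction.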
